A study of Mus musculus with 3 samples.

Results

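The transcripts of 10 genes of the integrated stress response were followed in 3 BCR-ABL(p185)+ cell lines that carry kinase inactive CDK6. The genes are *Atf4*, *Atf5*, *Ddit3*, *Asns*, *Trib3*, *Chac1*, *Ddit4*, *Slc7a11*, *Cebpb* and *Ppp1r15a*. They were chosen by symbol, as genes known to belong to the ATF4 pathway, and all 10 were found among the 50686 genes of the count table. The lines were made from bone marrow cells of mice homozygous for the CDK6-K43M mutant, which were retrovirally transduced with BCR-ABL(p185) and are labelled as Pre/Pro-B-cells. All 3 lines share this genotype and were grown in RPMI with 10% FCS and 50 µmol/l 2-mercaptoethanol, without a further treatment in the labels. The age of the mice, and whether the lines came from separate mice, is not given in the sources used here, and each line is an outgrowth in culture. The CDK6-WT and CDK6-KO lines of the study were not used here. The values therefore give levels and the spread between 3 lines of 1 genotype, and whether CDK6 kinase activity changes this response is not addressed by them.

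Counts on genes summed to between 19633463 and 25773221 per line. A count of 0 allows a level of up to 3 counts, which is between 0.118 and 0.152 CPM (counts scaled to a common library size). Limits and intervals cover counting error only, since the reads carry no molecular identifiers. Of 11 B-lineage markers, 11 reached at least 1 CPM in every line, and their summed level lay between 4135 and 4606 CPM. The summed level of 5 T cell markers was at most 0.275 CPM, that of 6 myeloid markers between 1.75 and 3.93 CPM and that of 4 erythroid markers between 2.49 and 6.44 CPM, and 4 stromal markers were at 0 in all lines. *Cd3e*, *Cd3g*, *Cd8a*, *Elane* and *S100a8* were at 0 in all lines as well, and the part of such cells in the values that follow was not tested. *Cdk6* itself was read in every line, with 450, 334 and 239 CPM in lines 1, 2 and 3, but the mutation cannot be seen in a gene count.

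The integrated stress response is a shared arm of several stress pathways. Kinases that sense unfolded proteins, amino acid shortage, haem or mitochondrial damage phosphorylate the translation factor eIF2, which lowers protein synthesis as a whole and raises the translation of *Atf4*. The transcription factor ATF4 then binds C/EBP-ATF response elements, often as a dimer with C/EBP factors, and switches on genes for amino acid supply, redox balance and, under long stress, cell death. Since ATF4 is controlled largely at translation, the transcript level of *Atf4* is not a measure of ATF4 activity, and its target genes are usually read instead. Dysfunctional mitochondria are known to act on this pathway.

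The upstream sequence of the genes was read first. The choice by symbol used no sequence, but the genes were taken as known members of the ATF4 pathway. As ATF4 binds C/EBP-ATF response elements, matches to them are not independent of this choice and only describe the windows. RefSeq promoter windows of GRCm38.p6 were matched for 10 of 10 genes. The core searched for was TGATGNAA on both strands in the 250 bases before the start site. It was present in *Asns*, *Chac1* and *Slc7a11*, or 3 of 10 genes, against 3.91% of all genes with a window and 3.45% of all 32851 windows of this length. The median GC content was 60.7% over the 11 windows of the 10 genes and 52.7% over all windows, and its part in these matches was not tested. The windows of these 3 genes are shown 5′ to 3′ with the core in capitals.
Asns (chr6:7693210-7693459, minus strand): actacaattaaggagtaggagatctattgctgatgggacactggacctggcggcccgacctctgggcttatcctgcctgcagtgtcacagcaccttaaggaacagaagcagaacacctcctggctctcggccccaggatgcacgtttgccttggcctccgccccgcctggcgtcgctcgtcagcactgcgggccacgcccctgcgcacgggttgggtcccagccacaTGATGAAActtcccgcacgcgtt
Chac1 (chr2:119350992-119351241, plus strand): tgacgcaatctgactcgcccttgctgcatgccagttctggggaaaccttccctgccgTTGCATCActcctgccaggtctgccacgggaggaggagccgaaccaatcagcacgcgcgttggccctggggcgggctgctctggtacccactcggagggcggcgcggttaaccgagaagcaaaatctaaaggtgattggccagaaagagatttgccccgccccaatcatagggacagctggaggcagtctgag
Slc7a11 (chr3:50443614-50443863, minus strand): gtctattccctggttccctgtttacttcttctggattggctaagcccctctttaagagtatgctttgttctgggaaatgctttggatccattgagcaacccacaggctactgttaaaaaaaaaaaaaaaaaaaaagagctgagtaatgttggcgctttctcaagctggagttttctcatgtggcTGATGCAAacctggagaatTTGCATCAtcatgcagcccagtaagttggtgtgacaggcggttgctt
*Slc7a11* held the core on both strands, with first bases at -66 and -47 from the start site, *Asns* held 1 core at -23 and *Chac1* 1 core on the reverse strand at -193. With the 50 bases after the start included, *Trib3* was added, and the share of all windows was 3.97%. The full cyclic AMP response element TGACGTCA, which contains the shorter TGACG on both strands, was found in *Ppp1r15a* and in 1.55% of all windows before the start. Its window is shown with this element in capitals.
Ppp1r15a (chr7:45526269-45526518, minus strand): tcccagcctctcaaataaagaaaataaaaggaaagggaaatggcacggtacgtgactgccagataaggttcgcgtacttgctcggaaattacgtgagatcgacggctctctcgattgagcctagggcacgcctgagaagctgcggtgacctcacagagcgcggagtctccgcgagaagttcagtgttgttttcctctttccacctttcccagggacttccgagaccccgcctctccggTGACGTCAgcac
The shorter element TGACG was found in 6 of 10 genes, namely *Asns*, *Atf4*, *Cebpb*, *Chac1*, *Ppp1r15a* and *Trib3*, against 19.8% of all genes with a window. The endoplasmic reticulum stress element, CCAAT followed by CCACG after 9 bases, was found in 0 of 10 genes and in 0.113% of all windows. A match describes the letters of a window and not the binding of a factor.

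Levels between genes were compared per exon length, as TPM (counts divided by exon length and scaled to a common total). In bulk libraries such as these, fewer cells with a transcript and less of it per cell cannot be told apart. *Atf4* led with 558 ± 41.8 TPM, followed by *Asns* with 268 ± 22.1 TPM, *Ddit4* with 110 ± 7.48 TPM and *Atf5* with 80.1 ± 31.8 TPM (SD, n = 3 each). *Trib3* had 24.5 ± 7.01 TPM, *Ddit3* 19.7 ± 1.35 TPM, *Ppp1r15a* 18.8 ± 3.43 TPM and *Chac1* 6.55 ± 1.66 TPM, while *Cebpb* had 1.04 ± 0.996 TPM and *Slc7a11* 0.00856 ± 0.0148 TPM (SD, n = 3 each). *Atf4* and its amino acid synthesis target *Asns* thus stood above all others, and the importer *Slc7a11* below. The ranges of the lines did not overlap between *Atf4* and *Asns*, *Asns* and *Ddit4*, *Atf5* and *Trib3*, *Ppp1r15a* and *Chac1*, or *Chac1* and *Cebpb*. They overlapped between *Ddit4* and *Atf5*, although *Ddit4* was the higher in each line, and *Trib3*, *Ddit3* and *Ppp1r15a* could not be ordered beyond their spread. With the longest transcript as length, *Ddit3* rose to 26.1 TPM and stood before *Trib3* with 19.2 TPM. *Atf4* then fell to 488 TPM, *Ddit4* to 82.1 TPM and *Ppp1r15a* to 14.7 TPM. These shifts and that of *Ddit3* exceeded the SD of the gene, whereas those of the other genes did not. Only 1.66% of the genes tested had a higher level per length than *Atf4* and 4.87% a higher one than *Asns*, against 50.3% for *Ddit3* and 66.6% for *Chac1*.

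**Figure D1:**
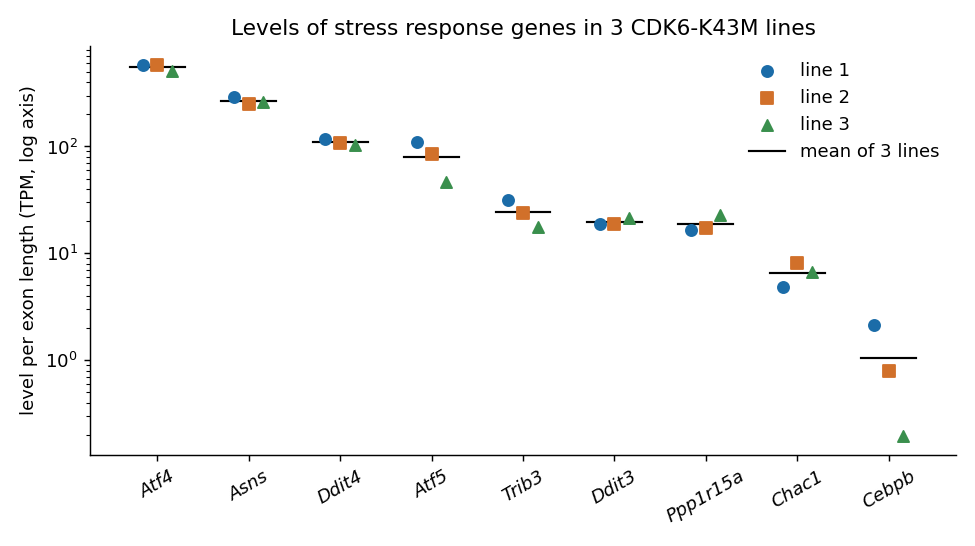
Level per exon length (TPM, log axis) of 9 genes in 3 CDK6-K43M lines, with a point for each line and a bar at the mean. The lines lie close together for *Atf4*, from 510 to 585 TPM, and apart for *Atf5*, from 46.4 to 110 TPM, and *Slc7a11* is not drawn since it had 0 counts in lines 2 and 3.

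The counts of each gene were tested for a difference between the 3 libraries by a chi-square test of homogeneity with Benjamini-Hochberg adjustment over all genes tested, which compares these libraries and not conditions. Of 13974 genes with at least 10 counts in total, 66.8% differed. Of the 10 stress response genes, 9 passed this filter and 8 of them differed, *Ddit3* being the one that did not, and *Slc7a11* was not tested. As the counting error of well read genes is small, the ratio of the highest to the lowest line was taken beside it. It reached 1.5 in 4 of the 9 genes, *Atf5*, *Trib3*, *Chac1* and *Cebpb*, against 41.8% of all genes tested. The median ratio was 1.44 for the 9 genes and 1.37 for all genes tested. *Cebpb* passed the filter mainly through its count in line 1 and so had little chance not to differ. With 1 line left out, 5, 7 and 4 of the genes differed without lines 1, 2 and 3. These counts stand against 54.3%, 54.5% and 47.1% of all genes tested in the same fits. Between 1 and 3 genes reached the ratio of 1.5, with the lowest number without line 1. The share of all genes at this ratio was not computed for these fits. Of the 7 genes with a mean of at least 5 CPM, 6 differed and 2 reached the ratio of 1.5, against 80.1% and 22.6% of all genes at this level. The median ratio of all genes at this level was 1.23. *Atf4*, *Ddit4*, *Asns* and *Ddit3* lay below it, and *Ppp1r15a*, *Trib3* and *Atf5* above. The median of 1.44 thus includes *Chac1* and *Cebpb*, which were read at few counts.

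**Figure D2:**
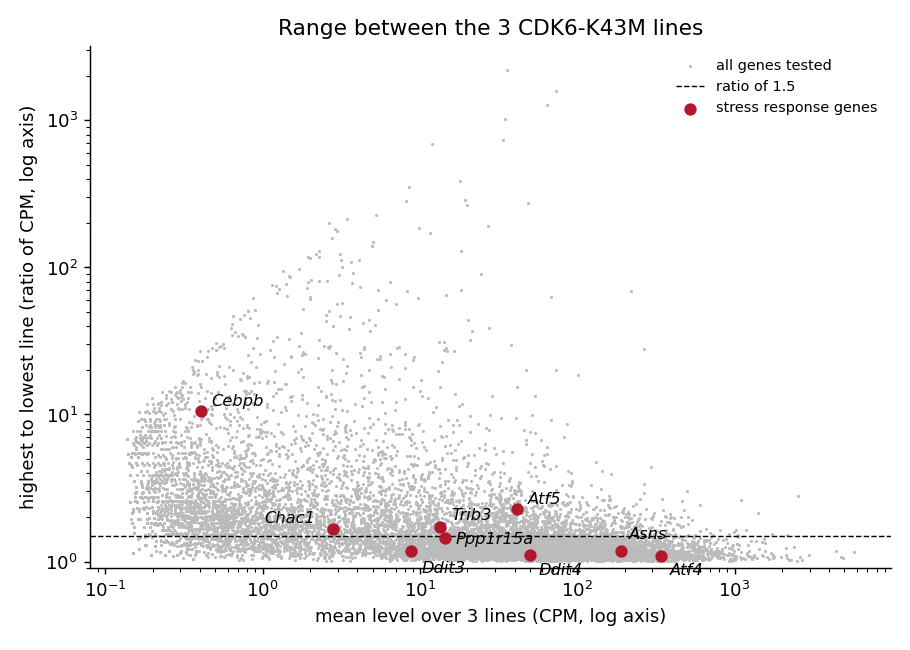
Mean level over 3 lines (CPM, log axis) against the ratio of the highest to the lowest line (log axis) for all genes tested in grey and the stress response genes in red, without genes at 0 in a line. *Atf4*, *Asns*, *Ddit4* and *Ddit3* lie between 1.10 and 1.18, and *Atf5* at 2.27 lies above the broken line at 1.5.

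Among the transcription factors, *Atf4* (ENSMUSG00000042406.7) is a gene of chromosome 15 (plus strand, 80255184 to 80257541, mm10). It had 7629, 6966 and 8185 counts, or 351, 353 and 321 CPM, in lines 1, 2 and 3. Lines 1 and 2 were alike and line 3 was lower, with a ratio of 1.10 between the highest and the lowest line. This exceeded counting error (chi-square test of homogeneity, Benjamini-Hochberg adjusted p = 8.98e-10), but without line 3 the ratio was 1.00 and the adjusted p = 0.954, the highest over 7 alternatives, of which the lowest was 1.05e-13. 87.6% of the genes tested had a larger ratio than *Atf4*.

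*Atf5* encodes a related basic leucine zipper factor that is likewise controlled at translation and is known for the mitochondrial unfolded protein response. The gene (ENSMUSG00000038539.15, chromosome 7, minus strand, 44812256 to 44816658) had 1221, 848 and 630 counts, or 56.3, 42.96 and 24.7 CPM, in lines 1, 2 and 3. The 3 counting intervals were apart, from 53.1 to 59.5, from 40.1 to 45.9 and from 22.8 to 26.7 CPM (exact binomial, 95%). Line 1 was 2.27 times line 3 (chi-square test of homogeneity, Benjamini-Hochberg adjusted p = 2.81e-63), and the ratio was between 1.31 and 2.32 over 7 alternatives, with the call kept in each and the lowest ratio without line 3. Per length, *Atf5* stood at 0.189, 0.144 and 0.0911 times the level of *Atf4* in lines 1, 2 and 3. Of its exon bases, 4.11% are shared with exons of *Il4i1* and *Nup62* on the other strand, and the strand setting of the counting is not given in the sources used here.

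*Ddit3* encodes CHOP, the factor that links a lasting response to cell death. The gene (ENSMUSG00000025408.15, chromosome 10, plus strand, 127290774 to 127296288) had 182, 163 and 248 counts, or 8.38, 8.26 and 9.74 CPM, in lines 1, 2 and 3. The counting intervals of all lines overlapped, as they ran from 7.21 to 9.70, from 7.04 to 9.63 and from 8.56 to 11.03 CPM (exact binomial, 95%). No difference between lines was detectable at this depth (chi-square test of homogeneity, Benjamini-Hochberg adjusted p = 0.216, from 0.162 to 0.914 over 7 alternatives). Of its exon bases, 4.73% are shared with *Gm4189* and *Mars* on the other strand.

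*Cebpb* encodes C/EBPβ, a dimerisation partner of ATF4 that is abundant in myeloid cells. The gene (ENSMUSG00000056501.3, chromosome 2, plus strand, 167688915 to 167690418) had only 18, 6 and 2 counts, or 0.829, 0.304 and 0.0785 CPM, in lines 1, 2 and 3. All lines were under 1 CPM, and line 3 lay under the limit that a count of 0 allows. The ratio of line 1 to line 3 was 10.6, with a counting interval from 2.53 to 93.9 (exact conditional binomial, 95%). The lines differed (chi-square test of homogeneity, Benjamini-Hochberg adjusted p = 0.000325), but no longer without line 3, where the adjusted p was 0.0545 and the ratio 2.74. Over 5 alternatives the adjusted p began at 0.000199. *Tmem189* on the other strand covers 20.7% of the exon bases of *Cebpb*, so that the source of some of these reads is uncertain. *Lyz2*, the highest of the myeloid markers, had 1.66, 2.03 and 3.57 CPM in lines 1, 2 and 3, and *Mpo* had 2, 1 and 2 counts. The part of myeloid cells in the reads of *Cebpb* was not tested.

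*Asns* encodes asparagine synthetase, the classical ATF4 target that is induced by amino acid shortage. The gene (ENSMUSG00000029752.12, chromosome 6, minus strand, 7675169 to 7693254) had 4483, 3471 and 4832 counts, or 207, 176 and 190 CPM, in lines 1, 2 and 3. Line 2 was lowest, by a ratio of 1.17 to line 1 (chi-square test of homogeneity, Benjamini-Hochberg adjusted p = 2.54e-11), and the call was kept over 7 alternatives with ratios from 1.08 to 1.18. Per length, *Asns* had 0.482 ± 0.0452 times the level of *Atf4* (SD, n = 3).

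*Trib3* encodes a pseudokinase that is induced by ATF4 and CHOP and restrains them in return. The gene (ENSMUSG00000032715.9, chromosome 2, minus strand, 152337422 to 152344032) had 378, 255 and 258 counts, or 17.4, 12.9 and 10.1 CPM, in lines 1, 2 and 3. Line 1 was highest and line 3 lowest, in the same order as for *Atf5* and *Cebpb*, with a ratio of 1.72 (chi-square test of homogeneity, Benjamini-Hochberg adjusted p = 2.08e-10). The call was kept over 7 alternatives, while the ratio fell to 1.28 without line 1 and 1.35 without line 3.

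*Chac1* encodes a glutathione-degrading enzyme downstream of ATF4 and CHOP. The gene (ENSMUSG00000027313.3, chromosome 2, plus strand, 119351229 to 119354381) had 44, 67 and 75 counts, or 2.03, 3.39 and 2.94 CPM, in lines 1, 2 and 3. Line 1, the highest line for *Trib3*, was the lowest for *Chac1*, with intervals from 1.47 to 2.72 CPM in line 1 and from 2.63 to 4.31 CPM in line 2 (exact binomial, 95%). The difference was close to the threshold (chi-square test of homogeneity, Benjamini-Hochberg adjusted p = 0.0386) and was lost in 3 of 7 alternatives. These were the fits without line 1 (adjusted p = 0.496, ratio 1.15), without line 2 (0.0946) and without a filter on low counts (0.0527), and the lowest adjusted p of the 7 was 0.0184.

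*Slc7a11* encodes the cystine importer xCT, by which ATF4 supports the synthesis of glutathione. The gene (ENSMUSG00000027737.10, chromosome 3, minus strand, 49892526 to 50443614) was read 2, 0 and 0 times in lines 1, 2 and 3. All lines were under the limit that a count of 0 allows, 0.138, 0.152 and 0.118 CPM, so the transcript was not detectable at this depth and no ratio was formed. It is the gene of the 10 whose upstream window holds the core element on both strands.

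*Ddit4* encodes REDD1, an inhibitor of the growth kinase mTORC1 that also responds to hypoxia and glucocorticoids. The gene (ENSMUSG00000020108.4, chromosome 10, minus strand, 59949669 to 59951834) had 1156, 957 and 1232 counts, or 53.3, 48.5 and 48.4 CPM, in lines 1, 2 and 3. Lines 2 and 3 were alike and line 1 was higher by a ratio of 1.10, which just passed the threshold (chi-square test of homogeneity, Benjamini-Hochberg adjusted p = 0.0482). It was lost in 3 of 7 alternatives, which were without line 1 (adjusted p = 0.961, ratio 1.00), without line 3 (0.0564) and without a filter on low counts (0.111), and the lowest of the 7 was 0.0165.

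*Ppp1r15a* encodes GADD34, the inducible subunit that brings a phosphatase to eIF2 and so ends the response. The gene (ENSMUSG00000040435.12, chromosome 7, minus strand, 45522916 to 45526268) had 270, 256 and 455 counts, or 12.4, 12.97 and 17.9 CPM, in lines 1, 2 and 3. Line 3 stood above lines 1 and 2, which were alike, with a ratio of 1.44 (chi-square test of homogeneity, Benjamini-Hochberg adjusted p = 1.35e-06). Without line 3 the ratio was 1.04 and the adjusted p = 0.751, the highest over 7 alternatives, of which the lowest was 6.41e-07. Its constitutive counterpart *Ppp1r15b* was far higher, at 196 TPM against 18.8 TPM, and had 277, 297 and 281 CPM.

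The 10 genes did not share an order of the lines. Of the 9 genes tested, 5 were highest in line 1, 2 in line 2 and 2 in line 3, while line 3 was lowest in 5. Over all genes tested, 31.2%, 31.7% and 37.0% were highest in lines 1, 2 and 3, and 35.1% were lowest in line 3. On the log2(CPM + 1) scale, the median of the 9 genes lay at 0.09, -0.04 and -0.05 in lines 1, 2 and 3, relative to each gene's own mean. The summed level of the 10 genes was 709, 658 and 625 CPM.

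Each gene was also set beside its part of the chromosome, taken as the genes with a mean of at least 5 CPM that start within 5 Mb of it. The medians of the neighbours shifted by 0.18 or less between lines. For *Atf5*, the median deviation of 70 neighbours was -0.03, 0.02 and 0.02 in lines 1, 2 and 3, against 0.51, 0.13 and -0.64 for the gene itself on the log2(CPM + 1) scale. For *Trib3*, 75 neighbours had -0.05, -0.01 and 0.05, against 0.38, -0.03 and -0.35. *Ppp1r15a*, which lies close to *Atf5* on chromosome 7, had -0.18, -0.13 and 0.31, so that line 3 was the highest for one gene and the lowest for the other. *Ddit4* had 0.09, -0.04 and -0.05, and the median of its 40 neighbours was -0.07, -0.01 and 0.12. A median over many genes varies less than a single gene, so the sizes of the shifts were not compared.

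**Figure D3:**
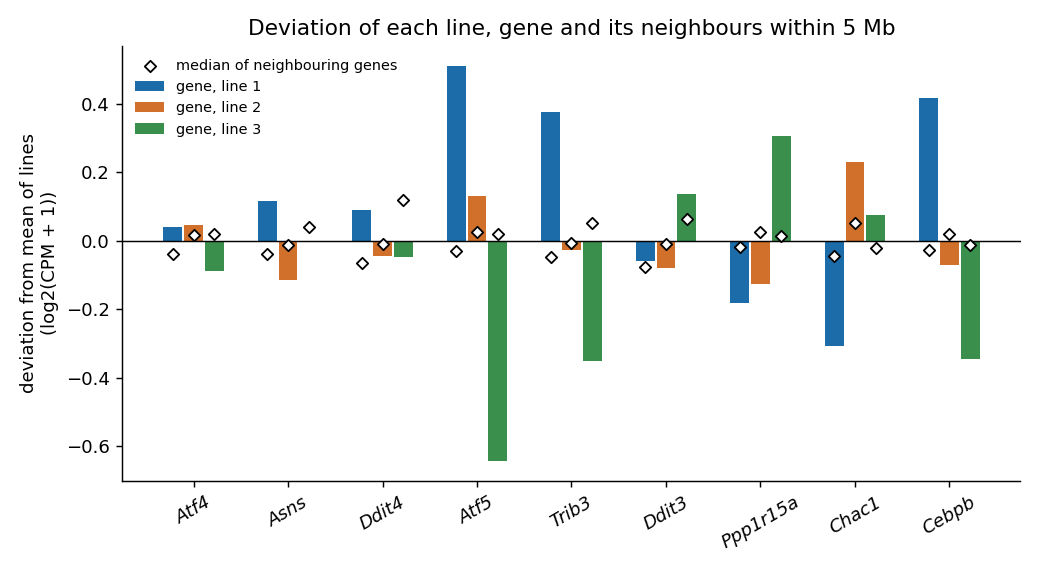
Deviation of the lines from their mean on the log2(CPM + 1) scale, as bars for 9 genes in order of their level per length and as diamonds for the median of the genes that start within 5 Mb. The bars of *Atf5* reach from -0.64 to 0.51, and all diamonds lie between -0.08 and 0.12. A median over many genes varies less than a single gene, so these sizes were not compared.

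The genes that act before and after ATF4 were followed as 8 lists. Of the kinases and factors of the eIF2 cycle, 12 of 13 genes tested differed between lines and 2 reached a ratio of 1.5. All 13 had a mean of at least 5 CPM, and both counts stand against 80.1% and 22.6% of all genes at this level, the background for the lists that follow unless another is given. *Eif2b5*, the catalytic subunit of the exchange factor eIF2B, had the highest level per length, with 217, 223 and 247 CPM in lines 1, 2 and 3. The 2 genes past the ratio of 1.5 were *Eif2s1*, which encodes the phosphorylated α subunit of eIF2, with 254, 246 and 140 CPM, and the eIF2B subunit *Eif2b4* with 91.1, 59.4 and 66.0 CPM. Their neighbours shifted as well. The deviation of *Eif2s1* was 0.30, 0.26 and -0.56 on the log2(CPM + 1) scale, and the median of its 42 neighbours on chromosome 12 was 0.22, 0.24 and -0.52. That of *Eif2b4* was 0.36, -0.25 and -0.10, with 0.29, -0.07 and -0.23 for 66 neighbours on chromosome 5, so that both were highest in line 1, whereas the gene was lowest in line 2 and the neighbours in line 3. The part of these blocks in the levels of both genes was not tested.

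In the relay that reports mitochondrial damage to the eIF2 kinases, 5 of 7 genes differed and 0 reached a ratio of 1.5, against 80.1% and 22.6%, with a median ratio of 1.10. *Oma1*, the protease of the inner membrane that starts this relay, had 10.2, 11.4 and 9.11 CPM, with a ratio of 1.25 that did not pass the test (chi-square test of homogeneity, Benjamini-Hochberg adjusted p = 0.0802). *Eif2ak1*, the haem-regulated kinase that receives the signal and is also a member of the list above, had 131, 106 and 97.3 CPM and a ratio of 1.35. Its deviations of 0.24, -0.06 and -0.18 lay beside 0.27, -0.08 and -0.18 for 74 neighbours on chromosome 5. *Phb2*, a scaffold of the inner membrane, led the list per length with 510, 474 and 510 CPM. Without line 3, 3 of these 7 genes differed, against 47.1% of all genes tested in that fit.

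Of 9 genes of the mitochondrial unfolded protein response, 8 differed and 0 reached a ratio of 1.5, against 80.1% and 22.6%, with a median ratio of 1.14. The chaperonin *Hspd1* had the highest mean level, 969 TPM, although the chaperone *Hspa9* was higher in line 2 and, with the longest transcript as length, in the mean. *Hspd1* had 674, 597 and 730 CPM in lines 1, 2 and 3. The largest ratio was that of the matrix protease subunit *Clpp*, 1.37, with 48.6, 42.6 and 58.5 CPM. Without line 1, 5 of the 9 genes differed, against 54.3% of all genes tested in that fit.

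Of the further targets of ATF4 and CHOP, 14 of 16 genes tested differed and 11 reached a ratio of 1.5, against 66.8% and 41.8% of all genes tested, and the median ratio was 2.00. The list holds genes at few counts, whose ratios are widened by counting error. *Cbs*, with 2, 3 and 17 counts, passed the filter only through line 3 and so had little chance not to differ. Of the 10 genes with a mean of at least 5 CPM, 10 differed and 6 reached the ratio, against 80.1% and 22.6%, with a median ratio of 1.58, a selection made after the data were seen. *Eif4ebp1*, a translation repressor, led with 139 TPM. It had 78.9, 76.0 and 83.5 CPM and differed between lines, though by a ratio of only 1.10. *Vldlr*, a lipoprotein receptor, had 306, 78 and 6 counts, or 14.1, 3.95 and 0.236 CPM, in lines 1, 2 and 3. Its mean passed 5 CPM only through line 1, so it had little chance not to differ or not to reach the ratio. *Cth*, which makes cysteine from cystathionine, had 74.3, 34.2 and 33.4 CPM, with line 1 above the others. The circulating stress signals *Gdf15* and *Fgf21*, which mark mitochondrial stress in other tissues, were at 0 counts in all 3 lines. They are named after their values were seen, and with *Ddr2* at 1 count they are the 3 of 19 genes that were not tested.

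Amino acid transporters differed in 10 of 11 genes, and 3 reached a ratio of 1.5, against 80.1% and 22.6%. *Slc7a5*, the large neutral amino acid transporter, led with 633 TPM and had 687, 545 and 601 CPM. The largest ratios were those of *Slc7a3*, a transporter of cationic amino acids, with 33.0, 7.90 and 10.2 CPM, and *Slc38a7*, a glutamine transporter of the lysosome, with 13.5, 21.2 and 23.4 CPM. *Slc7a3* on the X chromosome had deviations of 1.18, -0.75 and -0.43, whereas the median of its 33 neighbours was -0.36, -0.22 and 0.57.

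Among enzymes of serine, proline and one-carbon metabolism, 8 of 9 differed and 2 reached a ratio of 1.5, against 66.8% and 41.8% of all genes tested. Of the 8 with a mean of at least 5 CPM, 7 differed and 1 reached the ratio, against 80.1% and 22.6%. *Shmt2*, which makes glycine and one-carbon units in mitochondria, led with 959 TPM. It had 771, 749 and 809 CPM and differed between lines, though by a ratio of only 1.08. *Psat1* had 465, 398 and 525 CPM, and *Psph*, the last enzyme of serine synthesis, had 129, 79.3 and 67.8 CPM. The deviations of *Psph* were 0.54, -0.16 and -0.38, beside 0.31, -0.10 and -0.23 for 35 neighbours on chromosome 5.

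The cytosolic aminoacyl-tRNA synthetases and the tRNA exporter *Xpot* had the smallest median ratio of the 8 lists, 1.09. Of these 18 genes, 17 differed and 1 reached a ratio of 1.5, against 80.1% and 22.6%. Without line 2, 11 of them differed, against 54.5% of all genes tested in that fit. *Gars* led with 596 TPM, at 485, 464 and 504 CPM. *Vars* had 702, 744 and 871 CPM. *Iars* had 194, 339 and 208 CPM, with deviations of -0.30, 0.50 and -0.20 beside -0.34, 0.53 and -0.17 for 36 neighbours on chromosome 13.

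Genes of the ATF6 and XBP1 arm of the unfolded protein response, which acts beside the ATF4 arm in the endoplasmic reticulum, differed in 16 of 16 cases, and 5 reached a ratio of 1.5, against 80.1% and 22.6%. Line 2 was the lowest in 13 of the 16 genes, against 30.5% of all genes tested, and line 1 the highest in 11, against 31.2%. Their summed level was 9449, 6571 and 8475 CPM. *Calr*, with 1747, 1312 and 1609 CPM, had the highest mean level per length, 2075 TPM, close to *Hsp90b1* with 2066 TPM, which was the higher in lines 1 and 3. The largest ratios were those of *Sdf2l1*, with 311, 175 and 227 CPM, and *Creld2*, with 134, 82.9 and 117 CPM. Of the 9 stress response genes tested, only 2 were lowest in line 2, against 30.5% of all genes tested, and 5 were lowest in line 3. The 2 genes were *Asns* and *Ddit3*, the latter without a detectable difference. Counts of the lowest line were not planned beforehand. Line 2 was also the lowest in 12 of 18 genes of the tRNA synthetase list and 6 of 11 amino acid transporters. The same held for 6 of 9 genes in each of the serine and the mitochondrial unfolded protein response lists. Line 2 was the lowest in 4 of 13 genes of the eIF2 cycle, 2 of 7 of the mitochondrial relay and 5 of 16 further targets tested.

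**Figure D4:**
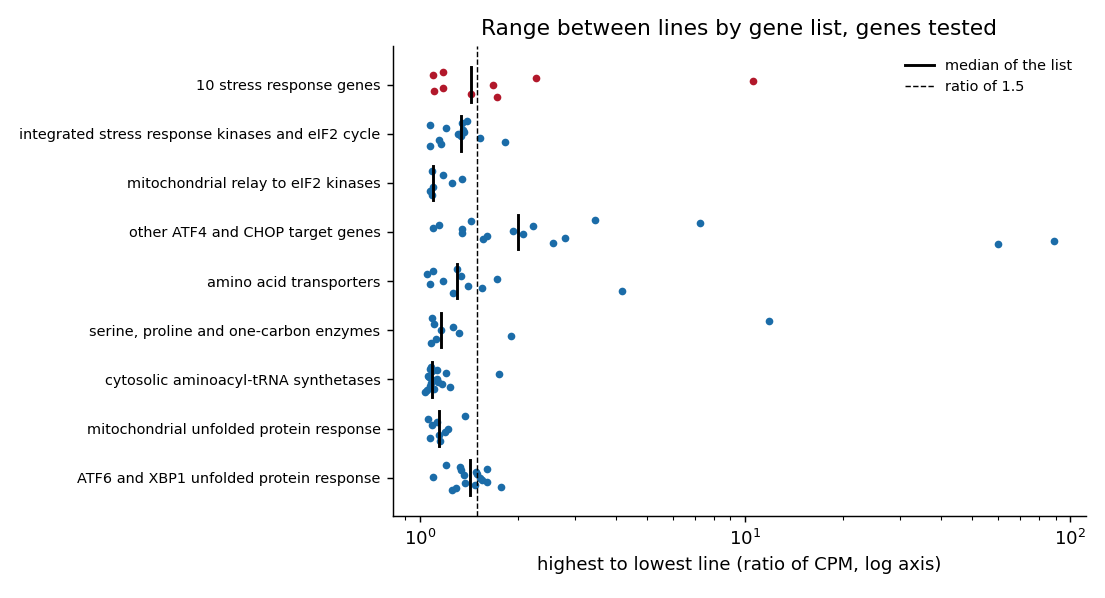
Ratio of the highest to the lowest line (log axis) of each gene tested, by list, with a point for each gene, a bar at the median of the list and a broken line at 1.5. The further ATF4 and CHOP targets have a median of 2.00, the 10 stress response genes (9 tested) 1.44 and the tRNA synthetases 1.09. The medians of 2.00 and 1.44 include genes with a mean under 5 CPM, whereas that of 1.09 does not.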

How the data were processed

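Poly(A) RNA of 3 CDK6-K43M lines was analysed. The authors trimmed reads with Trimmomatic 0.36, aligned them to mm10 with STAR 2.7.6a and counted reads on Gencode M13 exons by featureCounts, per the study's methods. The authors deposited these raw counts, not normalized. The sample record names the SENSE kit with single-end reads of 50 bases, the paper's methods the TruSeq kit. The strand setting and the treatment of reads with several matches are not given in the sources used here. Another 6 columns of the table were not used. It holds 0 rows that name no gene.

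Symbols were matched for 50376 of 50686 identifiers, and positions and exon lengths for 50462 from Gencode M21 (GRCm38). Counts were scaled with edgeR 4.0.16 (TMM, R 4.3.3) to CPM. TPM used the union of exons. Genes with at least 10 counts in total were tested by chi-square for homogeneity of the 3 lines (adjusted p under 0.05, Benjamini-Hochberg), in Python 3.11.15 with scipy 1.17.1. No genotype test could be made with 1 group. Each pair of lines differed at 6102 genes or more, so that no library was taken for a duplicate. The alternatives tried were scaling by DESeq2 1.42.0 or by library size, other filters, lengths, pseudocounts and promoter windows, each line left out and, after seeing the data, the lists at a mean of at least 5 CPM. In a simulation of this comparison over 13757 genes, 74 of 100 genes changed 2-fold and 69 of 100 changed 1.5-fold were called, with 6 false calls among 13557 unchanged genes. The simulated counts held counting error alone, so that few false calls were fixed in advance. The real lines also spread beyond it, with a common biological coefficient of variation of 0.366 (edgeR). How the test behaves under such a spread was not simulated.

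The 10 genes and the lists were chosen with earlier results of these data known. Of each list, the gene with the highest level per length and the 2 with the largest ratio at a mean of at least 5 CPM were named.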

Additional observations from a re-analysis of the deposited data

How the results depend on the processing

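No paired analysis was possible because all 3 lines are of the same group. With 1 line left out, the number of genes that differed ranged from 6098 to 7267 against 9341, that of the 10 stress response genes from 4 to 7 against 8, and that with a ratio of 1.5 from 1 to 3 against 4. The range was 3 to 4 of 7 genes (against 5) for the mitochondrial relay. For the tRNA synthetases it was 11 to 15 of 18 genes (against 17). For the mitochondrial unfolded protein response it was 5 to 8 of 9 genes (against 8). Of all genes tested, 54.3%, 54.5% and 47.1% differed without lines 1, 2 and 3, against 66.8% with all lines. The share of all genes at the ratio of 1.5 was not computed for these fits. Leaving out a line lowers the number of reads tested and can remove the line that stands apart, so part of these decreases lies in the construction. Of such counts under an alternative, 77 stayed within 1.5 times the main count and 8 moved, all 8 with a line left out. These include the lists among genes with a mean of at least 5 CPM, an alternative chosen after seeing the data. Of 61 tests of single stress response genes under an alternative, 52 kept their side of the threshold and 9 lost it, in *Atf4*, *Cebpb*, *Chac1*, *Ddit4* and *Ppp1r15a*. Scaling by DESeq2 or library size changed no such call, and all 70 mean levels in CPM stayed within 1 SD. For the fits with a line left out this was nearly fixed in advance, since removing 1 of 3 values shifts a mean by less than 1 SD. Depth limits *Slc7a11*, with at most 2 counts in a line, and *Cebpb*, with 2 counts in line 3 and 6 in line 2.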

Other observations

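Some further genes of the lists stood apart in 1 line. They are named here after their values were seen. *Atf3*, a stress-induced factor of the same family as ATF4, had 18, 43 and 73 counts, or 0.829, 2.18 and 2.87 CPM, in lines 1, 2 and 3, which is the reverse of the order of *Cebpb* and *Trib3*. *Gadd45a*, a gene of growth arrest and DNA damage, followed the order of *Atf3* with 3.82, 6.79 and 7.38 CPM. *Stc2*, a secreted glycoprotein, had 2, 162 and 21 counts and was thus highest in line 2. *Aldh1l2*, a mitochondrial enzyme of folate metabolism, had 181, 52 and 18 counts, or 8.34, 2.63 and 0.707 CPM, in the same order as *Vldlr*. *Nupr1*, a stress-induced chromatin protein, had 66, 67 and 31 counts, with the lowest value in line 3. These 5 genes differed between the libraries (chi-square test of homogeneity, Benjamini-Hochberg adjusted p from 3.58e-65 for *Stc2* to 1.04e-05 for *Atf3*). Of all genes tested, 66.8% differed. As the 5 genes were picked by these same values, they had little chance not to differ. *Bbc3*, which encodes the death factor PUMA, had 4.24, 3.85 and 2.94 CPM and did not pass (adjusted p = 0.0799).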
